A study of Mus musculus with 8 samples.

Results

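Mitotic G2/M OT-I cells were defined within each library as the 8% of cells with the highest share of UMIs from 8 genes, Ccnb1, Ccnb2, Cdc20, Cdkn3, Knstrn, Cenpa, Cep55 and Hmmr. Of 56359 barcodes, 23337 had 1 called guide and at most 10% of gene UMIs from mitochondrial genes, and 1866 of these were members. They numbered 204 of 2552 cells in anti-PD-1 replicate 1, 209 of 2616 in replicate 2, 522 of 6530 in replicate 3 and 931 of 11639 in the IgG library. The share was set by the rule, so it is the same in each library and says nothing about treatment.

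The cells came from a CROP-seq screen, in which each T cell carries a CRISPR guide that is read together with its transcriptome. The CD8+ T cells transferred were C57BL/6J cells that combined 2 genetic changes. OT-I, from a Rag2/OT-I parent, gave them a receptor for an ovalbumin peptide, and Rosa26-Cas9, from the other parent, the nuclease that the guides direct. They were transduced with a lentiviral metabolic library of 280 guides, 34 of them nontargeting (sgNT) and the rest against 83 genes, selected for the CD90.1 reporter of the vector and transferred into Rosa26-Cas9 recipients bearing orthotopic KPC_OVA tumours, a pancreatic ductal adenocarcinoma line that carries ovalbumin. All mice were 6 to 12 weeks old. Anti-PD-1, or IgG as control, was given from the day of transfer, and CD90.1+ OT-I cells were sorted from primary tumours 7 days after it. Both groups thus share Cas9, the library and the antigen. There were 3 anti-PD-1 libraries and 1 IgG library, and the number of mice behind each was not given in the labels.

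In dividing cells, B-type cyclins bound to CDK1 drive entry into mitosis, kinesins and Aurora and Polo-like kinases build the spindle, and CDC20 then turns the anaphase-promoting complex (APC/C) on cyclin B and securin. Many of these genes share a late peak of transcription. Their promoters often hold a cell cycle genes homology region (CHR), which the MuvB complex binds together with B-MYB or FOXM1, beside CCAAT boxes bound by NF-Y. Activated CD8+ T cells are known for very fast division, and for effector genes such as granzymes, interferon-γ and XCL1.

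The 120 bases before the RefSeq start site are shown for 6 genes that were high in members and for Ung, which was low, since these stretches display the 2 motifs side by side. They are written 5′ to 3′ along the gene's strand in GRCm38.p6, and capitals mark CHR elements (TTTGAA, or TTCAAA on the other strand) and CCAAT boxes (CCAAT or ATTGG).
Ccnb1, chr13:100786487-100786606, minus strand: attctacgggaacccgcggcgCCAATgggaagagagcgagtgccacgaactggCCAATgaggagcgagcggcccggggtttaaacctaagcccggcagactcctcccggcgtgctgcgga
Ccnb2, chr9:70421555-70421674, minus strand: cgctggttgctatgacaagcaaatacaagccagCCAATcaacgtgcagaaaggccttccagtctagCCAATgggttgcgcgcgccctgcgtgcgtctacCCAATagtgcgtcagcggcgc
Hmmr, chr11:40733438-40733557, minus strand: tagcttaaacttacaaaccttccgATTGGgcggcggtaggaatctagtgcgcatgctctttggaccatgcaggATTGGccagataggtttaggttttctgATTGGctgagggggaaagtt
Cdc20, chr4:118437344-118437463, minus strand: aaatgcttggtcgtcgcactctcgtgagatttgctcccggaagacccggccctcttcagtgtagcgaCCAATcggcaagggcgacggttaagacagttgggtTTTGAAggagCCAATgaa
Cdkn3, chr14:46760421-46760540, plus strand: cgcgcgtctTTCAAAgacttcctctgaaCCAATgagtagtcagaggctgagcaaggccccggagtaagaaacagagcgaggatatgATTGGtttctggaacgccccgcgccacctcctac
Ube2c, chr2:164769809-164769928, plus strand: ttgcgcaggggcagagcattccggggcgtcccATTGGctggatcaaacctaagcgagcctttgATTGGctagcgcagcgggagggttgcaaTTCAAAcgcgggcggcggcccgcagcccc
Ung, chr5:114130315-114130434, plus strand: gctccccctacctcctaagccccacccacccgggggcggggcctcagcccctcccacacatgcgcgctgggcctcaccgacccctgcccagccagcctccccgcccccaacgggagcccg
Ccnb1, which encodes cyclin B1, had CCAAT boxes 32 bases apart from start to start and no CHR in the 300 bases searched (250 before to 50 after the start). Ccnb2, for cyclin B2, had 3 CCAAT boxes spaced by 33 bases. In Cdc20 the CHR lay at -18 to -13, between CCAAT boxes at -53 and -8. Ung, which encodes uracil-DNA glycosylase, a repair enzyme of replicating cells, had neither motif in these letters.

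In some genes, Ccnb2 and Hmmr among them, a CHR lay just after the start site. The genes below were chosen for this position, and 20 bases around the element are shown with the CHR in capitals.
Ccnb2, chr9:70421538-70421557, minus strand: cgcggtaTTTGAAtcgcgga
Hmmr, chr11:40733417-40733436, minus strand: aggtaaaTTTGAAttcaggc
Cenpa, chr5:30666895-30666914, plus strand: gtgatttTTTGAActgctgg
Cenpf, chr1:189688072-189688091, minus strand: cgggcagTTTGAAtcgctcg
Plk1, chr7:122159458-122159477, plus strand: cgccgcgTTTGAAttcgggg
Aurka, chr2:172370526-172370545, minus strand: gagaaccTTTGAAttgtaac
Counted from 1 at the start site, the element began at base 3 in Cenpf, 5 in Ccnb2, 9 in Hmmr, 17 in Cenpa, 31 in Plk1 and 33 in Aurka. Ccnb2 also had a CHR further from the start site, at -167 to -162. Cep55 had a CHR without a CCAAT box, and Knstrn had neither.

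Expression is given as CPM, a gene's UMIs per 1000000 summed UMIs of a library's members or of its other single-guide cells, and ratios as log2 of members over other cells, mean ± SD over the 4 libraries. The 8 rule genes chose the cells, so their values are a description. Cdc20 (ENSMUSG00000006398), the activator of the APC/C, had 240, 267 and 298 CPM in members of the 3 anti-PD-1 libraries and 302 CPM in the IgG library. The other cells had 20.6, 23.2, 22.1 and 26.8 CPM, so the groups lay far apart (log2 3.52 ± 0.11). Ccnb1 (ENSMUSG00000041431) had 198, 240, 218 and 224 CPM in members and 24.9, 27.5, 22.2 and 26.2 CPM in other cells (log2 3.08 ± 0.12). Since the rule genes chose the same share of cells in each library, their levels in members do not compare the treatments.

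The 6 remaining rule genes differed in how far members stood apart. Cdkn3, a phosphatase that acts on CDKs, had a log2 ratio of 3.19 ± 0.12. Hmmr, a spindle-associated receptor for hyaluronan, had 3.07 ± 0.22, and Ccnb2 had 2.94 ± 0.14. Cep55, which acts at the midbody in abscission, had 2.69 ± 0.23, and Knstrn, a kinetochore and spindle protein, had 2.50 ± 0.17. Cenpa, the centromeric histone H3, had the smallest ratio of the 8 (2.16 ± 0.14), with 1082 ± 112 CPM in members and 240 ± 1.73 CPM in other cells.

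The score had no gap at the limit. The lowest member scores were 1633, 1724, 2018 and 1970 CPM in anti-PD-1 replicates 1, 2 and 3 and IgG, and the highest scores outside were 1632, 1715, 2017 and 1969 CPM. The median member had 2256 to 2867 CPM of the 8 genes and the median other cell 218 to 232 CPM. Within 10% above the limit lay 41, 34, 68 and 144 members. The members are therefore a range of a score rather than a separate cluster of cells. Members had a median of 8, 8, 8 and 7 of the 8 genes detected, other cells 1. A median of 52, 52, 46 and 23 rule gene UMIs lay behind a member's score, and 2, 0, 4 and 23 members had under 2000 UMIs in all.

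Members held more RNA per barcode than the other cells together. Their median UMI count was 21827, 20528, 15180 and 7997 in the same order, 1.29 to 1.33 times that of other cells. The other cells high in replication histones but not in G1/S genes, a subset defined below, had 20530, 21090.5, 19607 and 8895.5. Those in the top 8% by G1/S genes had 19295, 20014, 15957 and 8052, so this depth was not particular to members. The IgG library was the shallowest per cell, and the 4 libraries held 142945121 to 155974184 gene UMIs each. Between 30 and 93 barcodes were shared by a pair of libraries, among them 1 member, between anti-PD-1 replicate 2 and IgG. At least 10 UMIs of markers of B, myeloid, tumour, stromal or erythroid cells were present in 5, 0, 10 and 3 members. Members of anti-PD-1 replicates 1 and 2, whose titles share a name, differed by a root mean square log2 of 0.19 over genes above 20 CPM, and anti-PD-1 replicate 3 and IgG by 0.17. Across these pairs it was 0.37 to 0.41, so replicate 3 was the anti-PD-1 library nearest to IgG. The labels list replicates 1 and 2 as separate samples, and their sums differed by more than counting noise (mean chi-square of 3.29 per gene), so they were kept as 2 samples. Sums of different cells from 1 suspension can differ by that much too, so both may come from the same mice, and p-values that rest on their spread would then be too small.

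To compare detection at equal depth, each cell was thinned to 4000 UMIs, which left out 4, 2, 9 and 93 members and 21, 25, 227 and 1875 other cells. Ccnb1 was then found in 45 to 54.3% of members over the 4 libraries, in 5.03 to 7.26% of other cells and in 1.34 to 2.09% of other cells with no Mki67 or Top2a UMI, which should lack it and give the level of background (their median depth was 5204 to 12513 UMIs). Cdc20 was found in 51 to 66.5%, 5.17 to 6.79% and 1.14 to 2.49% of the same groups. Without thinning these shares were higher in each group, as 73.5 to 87.7%, 11.9 to 22.4% and 2.9 to 5.8% for Ccnb1. Cenpa was less selective, with 96 to 98.6%, 50.04 to 50.3% and 41.7 to 43.6%. Outside the rule, Plk1, the Polo-like kinase of mitosis, had a UMI in 37.7 to 41.4% of members, 4.34 to 6.45% of other cells and 0.47 to 0.72% of those with no Mki67 or Top2a UMI. Cd8a was in 87.4 to 94.3% of members and 88.5 to 94.1% of other cells.

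Of 7170 genes outside the rule with at least 10 CPM, 164 (2.29%) were at least 2-fold higher in members in all 4 libraries and 13 (0.181%) at least 2-fold lower. At a lower bar, a ratio of at least 5 to 4 in all 4 libraries, the numbers were 516 (7.2%) higher and 304 (4.24%) lower. The median log2 ratio over all genes was -0.004. Since the cells were chosen by genes that vary together with these, the ratios carry no test. Besides the genes described below, the 13 included Tcp11l2 (-1.47 ± 0.31), Cd3eap (-1.20 ± 0.14) and Bag2 (-1.19 ± 0.15). The count of lower genes was 21 without anti-PD-1 replicate 1.

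Among the lists other than the rule genes, the spindle genes had the highest median. Of 36 genes for kinesins, spindle assembly and cytokinesis, 31 were at least 2-fold higher, 0 lower, and their median log2 ratio was 2.16. Aspm, which focuses spindle poles, had 132 ± 21.6 CPM in members and 17.9 ± 1 CPM in other cells (log2 2.80 ± 0.26). Gas2l3, which links actin and microtubules in cytokinesis, had a log2 ratio of 2.79 ± 0.18. At the other end Kif5b, the conventional kinesin of vesicle transport, had 154 ± 7.48 CPM against 149 ± 5.44 CPM (log2 0.05 ± 0.07), and Haus8, an augmin subunit of the spindle, had 0.06 ± 0.10, so both were level. Among 10 tubulins and tubulin ring components 5 were 2-fold higher, led by Tubb4b (1003 ± 129 against 209 ± 16.1 CPM) and Tuba1c (365 ± 43.4 against 87.0 ± 8.66 CPM), and 0 were lower.

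Of 18 mitotic kinases, phosphatases and cyclins, 13 were 2-fold higher and 0 lower (median log2 1.85). Nek2, a centrosomal kinase, had a log2 ratio of 2.81 ± 0.21. Aurka, the Aurora kinase of the spindle poles, had 62.9, 73.6, 114 and 105 CPM in members and 9.13, 11.2, 12.5 and 14.5 CPM in other cells (log2 2.78 ± 0.21). Both anti-PD-1 replicates 1 and 2 were lower than replicate 3 and IgG in each group of cells. Plk1 had 146 ± 20.8 against 21.6 ± 2.6 CPM (log2 2.69 ± 0.15), and Cdc25c, the phosphatase that activates CDK1, 37.6 ± 4.95 against 4.94 ± 0.42 CPM. Pkmyt1 and Vrk1 were the lowest of the list, at 0.25 ± 0.13 and 0.33 ± 0.10.

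The kinetochore list had 23 of 33 genes 2-fold higher, 32 past the lower bar and 0 lower (median log2 1.49). Cenpf, a large kinetochore protein of G2 and mitosis, had 435, 408, 577 and 568 CPM in members against 40.4, 46.5, 51.4 and 65.0 CPM, and Cenpe, the kinetochore kinesin, had a log2 ratio of 2.65 ± 0.12. In the spindle checkpoint 6 of 11 genes were 2-fold higher, with Bub1b at 2.07 ± 0.18 and Knl1 at 2.04 ± 0.16, and Zw10 at 0.29 ± 0.06. Of 20 APC/C and sister chromatid genes, 5 were 2-fold higher and 12 past the lower bar. The members of this list lay far apart from each other. Ube2c (ENSMUSG00000001403), the ubiquitin-conjugating enzyme of the APC/C, had 985, 1150, 1216 and 1247 CPM in members and 96.8, 117, 114 and 133 CPM in other cells, and its log2 ratio of 3.31 ± 0.08 was the highest outside the rule. Espl1, the separase that cuts cohesin, had 1.80 ± 0.09. The APC/C subunit Cdc26 (-0.02 ± 0.06) and the cohesin subunit Smc3 (0.03 ± 0.10) were level.

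The remaining genes among the 15 highest outside the rule were Pif1, a DNA helicase (2.97 ± 0.27), Pimreg, a mitotic regulator (2.90 ± 0.35), Sapcd2 (2.88 ± 0.19), Prr11 (2.82 ± 0.18), Parpbp, which restrains homologous recombination (2.74 ± 0.18), and Cep89, a centriolar protein (2.59 ± 0.26). Of 10 condensin and chromosome scaffold genes 7 were 2-fold higher. Mki67, which coats mitotic chromosomes, had 580 ± 81.2 against 168 ± 13.6 CPM and Top2a, the topoisomerase that untangles them, 663 ± 39.6 against 241 ± 11.8 CPM. Both are used as general proliferation markers, and both had smaller ratios (1.78 ± 0.15 and 1.45 ± 0.15) than the median of the spindle list. Among nuclear envelope genes 2 of 12 were 2-fold higher, Sun2 (1.496 ± 0.15) and Nup37 (1.36 ± 0.17). Hmgb2, a chromatin protein, was high in both groups, at 4145 ± 165 and 1297 ± 136 CPM, and H2afx, the histone variant phosphorylated at breaks, had a log2 ratio of 2.13 ± 0.18.

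**Figure D1:**
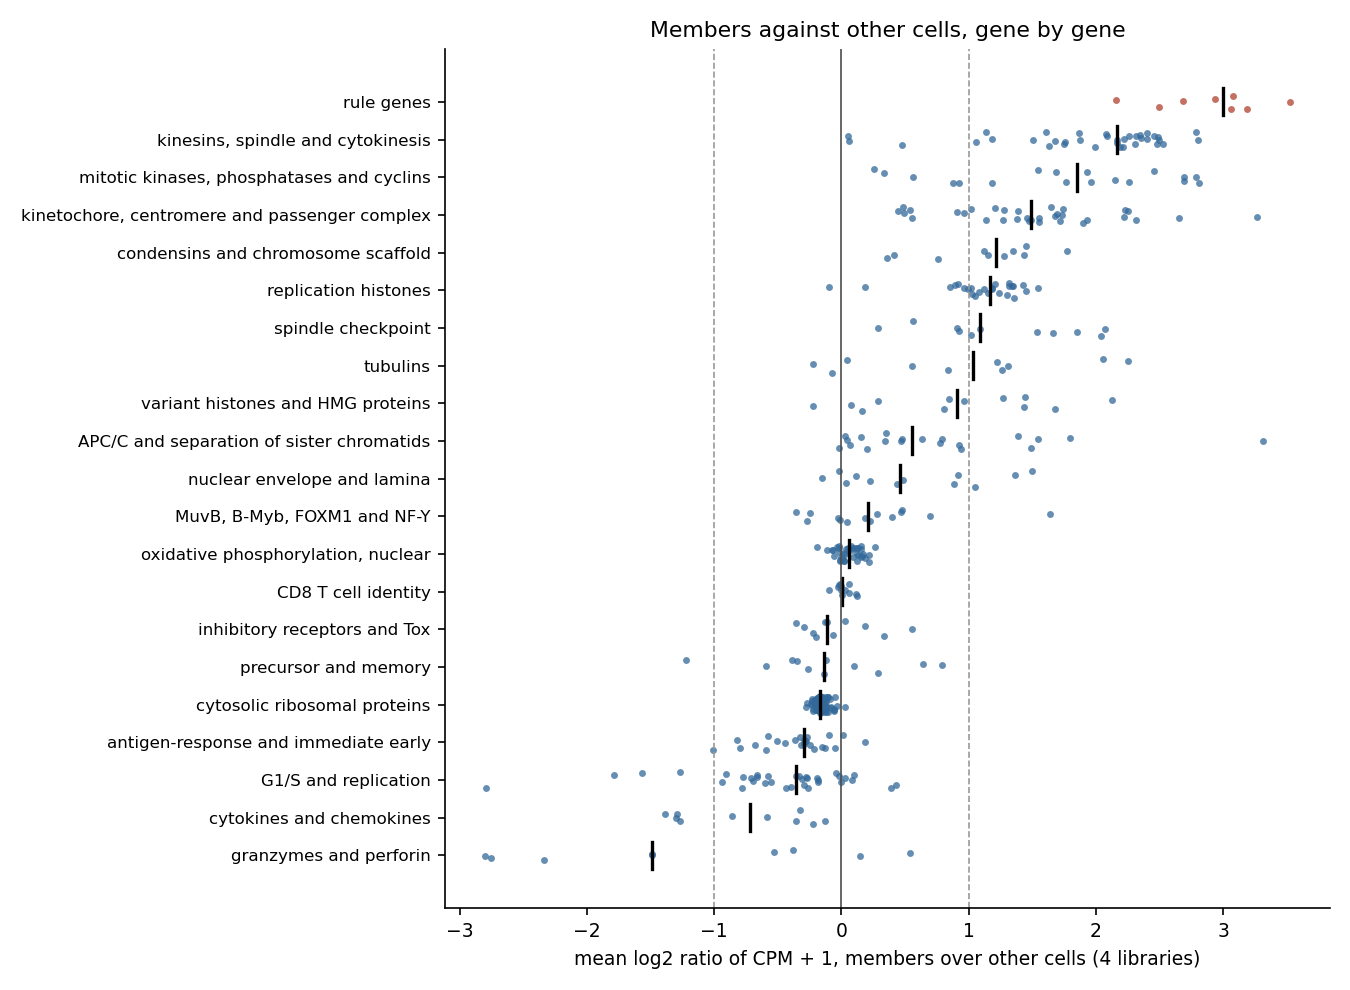
Mean log2 ratio over 4 libraries of CPM + 1, members over other single-guide cells, for each gene at or above 10 CPM in a list (points, rule genes in red); black bars are list medians and dashed lines mark 2-fold. The kinesin and spindle list has a median of 2.16 and the granzyme list one of -1.49 (log2 ratio of its summed CPM -0.22), while CD8 T cell identity genes lie between -0.10 and 0.12.

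Few regulators of this programme were far apart. Of 14 genes for MuvB, B-MYB, FOXM1 and NF-Y, 1 was 2-fold higher, 4 past the lower bar upwards (7.2% of all genes tested were) and 0 downwards (median log2 0.21). The 1 past 2-fold was Foxm1, with 29.02, 30.4, 32.5 and 28.4 CPM in members against 9.15, 9.03, 8.08 and 9.57 CPM in other cells. Lin9, a MuvB subunit, followed at 0.70 ± 0.14. Nfya (-0.27 ± 0.12) and Tfdp1, the dimer partner of E2F (-0.36 ± 0.11), were the lowest.

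The motifs of the printed promoters recurred among the genes that were high in members. Of the 164 genes at least 2-fold higher, 129 had a RefSeq promoter by symbol. A CHR was present in 75 of these (58.1%), a CCAAT box in 94 (72.9%) and both in 61 (47.3%). Over all 5767 tested genes with a promoter the shares were 14.7%, 43.0% and 6.23%, and over all 27025 promoters 20.2%, 41.1% and 7.97%. Of the 12 lower genes with a promoter, 1 had a CHR and 1 a CCAAT box. The share with a CHR was larger at higher ratios among the genes above 0.5, from 31 of 44 genes with a log2 ratio over 2 (70.5%) through 51 of 104 between 1 and 2 (49.0%) and 55 of 180 between 0.5 and 1 (30.6%) to 14.1% between 0 and 0.5. Below that it was 12.2% between -0.5 and 0 and 13.6% under -0.5, with no order. Within 50 bases of the start a CHR was present in 56 of the 129 promoters (43.4%) and in 136 of the other 5638 (2.41%).

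The G1/S genes served as a contrast. A CHR was in 3 of their 30 promoters (10.0%), and an E2F motif (TTCCCGCC on either strand) in 6 of 30, against 4.65% of the genes high in members, 5.38% of tested genes and 2.52% of all promoters. CCAAT boxes were in 60.0% of G1/S promoters. These are matches of letters, in windows that a gene may use or not.

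**Figure D2:**
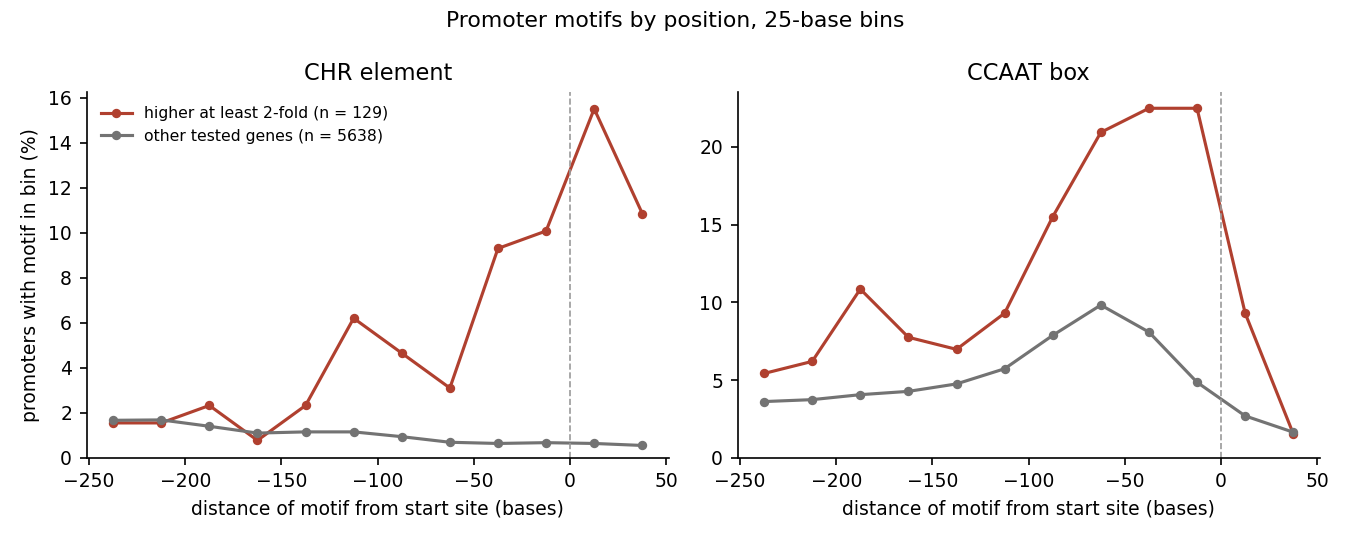
Share of promoters (%) with a CHR element (left) or a CCAAT box (right) in bins of 25 bases, by distance from the RefSeq start site (dashed line), for the 129 genes at least 2-fold higher in members (red) and the 5638 other tested genes (grey). The red CHR line is highest next to the start site, and the red CCAAT line just before it.

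Across the score, gene groups peaked at different places. Cells of each library were ranked by the rule score and their list UMIs summed. In the top 2% the kinesin and spindle list summed to 5045 to 6377 CPM over the libraries, in the 2 to 8% bin to 3757 to 4716 CPM, and below 32% to 702 to 825 CPM. It thus followed the score in each library. G1/S genes did not. They summed to 1378 to 1583 CPM in the top 2%, to 3192 to 3695 CPM between 16 and 32% and to 1904 to 2278 CPM below. Replication histones had 3287, 3439, 6158 and 5151 CPM between 8 and 16%, their highest bin in 3 of the 4 libraries (in anti-PD-1 replicate 1 the top 2% had 3401 CPM), and below 32% 713, 663, 857 and 1044 CPM. Their level within members differed between libraries. In the 2 to 8% bin it was 2914 and 2882 CPM in anti-PD-1 replicates 1 and 2 and 5557 and 4701 CPM in replicate 3 and IgG. Cytokines and chemokines ran the other way, from 4333 to 6268 CPM in the top 2% to 11227 to 16756 CPM below 32%, and cytosolic ribosomal proteins, from 232711 to 248197 CPM to 278227 to 296680 CPM.

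**Figure D3:**
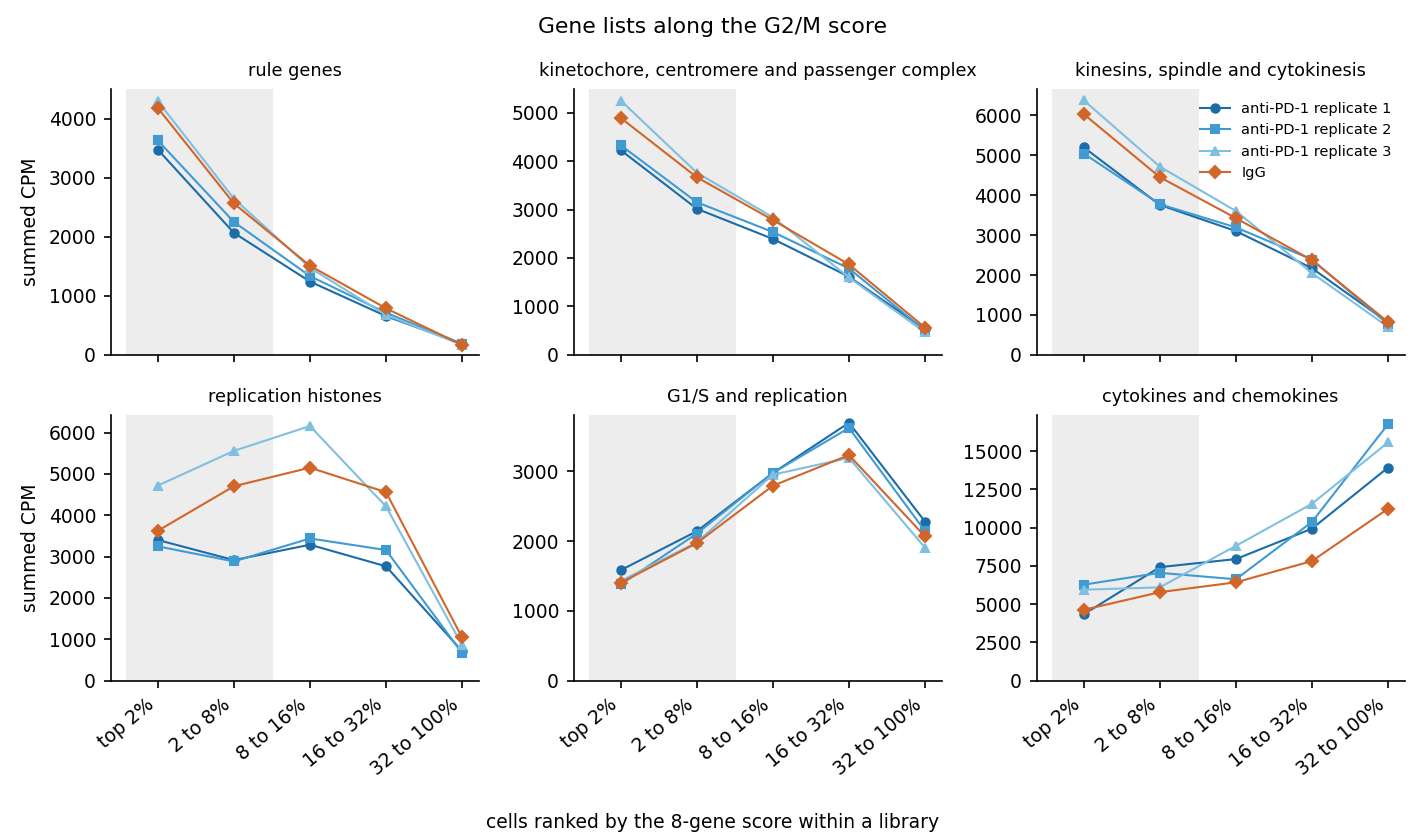
Summed CPM of 6 gene lists in cells ranked by the 8-gene score within each library, with 1 line for each library and the members' bins shaded. Kinesin genes decline with rank from 5045 to 6377 CPM to 702 to 825 CPM, G1/S genes are highest between 16 and 32%, and cytokines are highest in the lowest bin.

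Part of the G1/S genes were lower in members. Of 35 G1/S and replication genes 4 were 2-fold lower in members, 15 past the lower bar downwards and 1 higher (median log2 -0.36). Ung (ENSMUSG00000029591) had 5.29, 2.39, 2.76 and 2.12 CPM in members, from 25, 11, 24 and 17 UMIs, and 28.0, 25.7, 24.6 and 28.4 CPM in other cells (log2 -2.80 ± 0.44). E2f1, the transcription factor of S phase entry, had 5.08 ± 1.14 against 19.8 ± 2.19 CPM (log2 -1.79 ± 0.19). Cdc6, which loads the replicative helicase, had 6.28 ± 0.428 against 20.7 ± 2.6 CPM (log2 -1.57 ± 0.24). The fourth was Ccne2, for cyclin E2 (log2 -1.27 ± 0.18). After thinning, Ung had a UMI in 2, 0.48, 0.78 and 0.48% of members and in 8.38, 7.72, 6.73 and 8.67% of other cells. Outside the list Cdca7, a target of MYC and E2F, was lower too, with 15.3 ± 1.53 against 40.9 ± 1.2 CPM (log2 -1.36 ± 0.11). Rrm1, a subunit of ribonucleotide reductase, was the 1 gene of the list past the lower bar upwards (0.43 ± 0.13).

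To place members among the stages of the cycle, 3 subsets of the other cells were set beside them. These were 1850 other cells in the top 8% by G1/S genes, 888 in the top 8% by replication histones but not by G1/S genes, called histone-high cells, and 10002 in neither and with no Mki67 or Top2a UMI, called Mki67/Top2a-negative cells here. The subsets were defined by genes, and leaving G1/S cells out of the histone-high cells lowers their G1/S genes by construction, so the values describe these subsets and test nothing. Ung had 61.9 ± 8.78 CPM in G1/S cells, 7.5 ± 2.33 in histone-high cells, 13.0 ± 2.64 in Mki67/Top2a-negative cells and 3.14 ± 1.46 in members. E2f1 had 60.7 ± 1.86, 21.3 ± 3.47, 5.6 ± 1.03 and 5.08 ± 1.14 CPM in the same order. Members were therefore at the E2f1 level of Mki67/Top2a-negative cells and below them for Ung. Ccna2, for cyclin A2 of S and G2 phase, was at 114 ± 13.3, 186 ± 8.52, 3.06 ± 0.691 and 227 ± 15.2 CPM, and Ube2c at 98.0 ± 8.98, 436 ± 75.4, 29.5 ± 4.27 and 1150 ± 117 CPM. Ube2c thus separated members from histone-high cells where Ccna2 did so much less.

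Some cell cycle inhibitors were higher in members. Of 16 G1 cyclins, CDK inhibitors and antiproliferative genes, 2 were 2-fold higher, Cdkn2c (51.3, 56.0, 59.7 and 54.6 against 22.4, 21.2, 18.1 and 19.4 CPM) and Cdkn2d (1.38 ± 0.09), which encode the INK4 inhibitors p18 and p19 of CDK4 and CDK6. Cdkn2c was as high in histone-high other cells (58.7 ± 8.58 CPM) as in members (55.4 ± 3.5 CPM), and low in Mki67/Top2a-negative ones (10.8 ± 1.06 CPM). Ccnd2, for cyclin D2, had 86.0 ± 9.13 CPM in members and 152 ± 18.5 CPM in other cells (log2 -0.81 ± 0.12). It was at 66.7 ± 8.95 CPM in histone-high cells, so members did not have the lowest level.

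**Figure D4:**
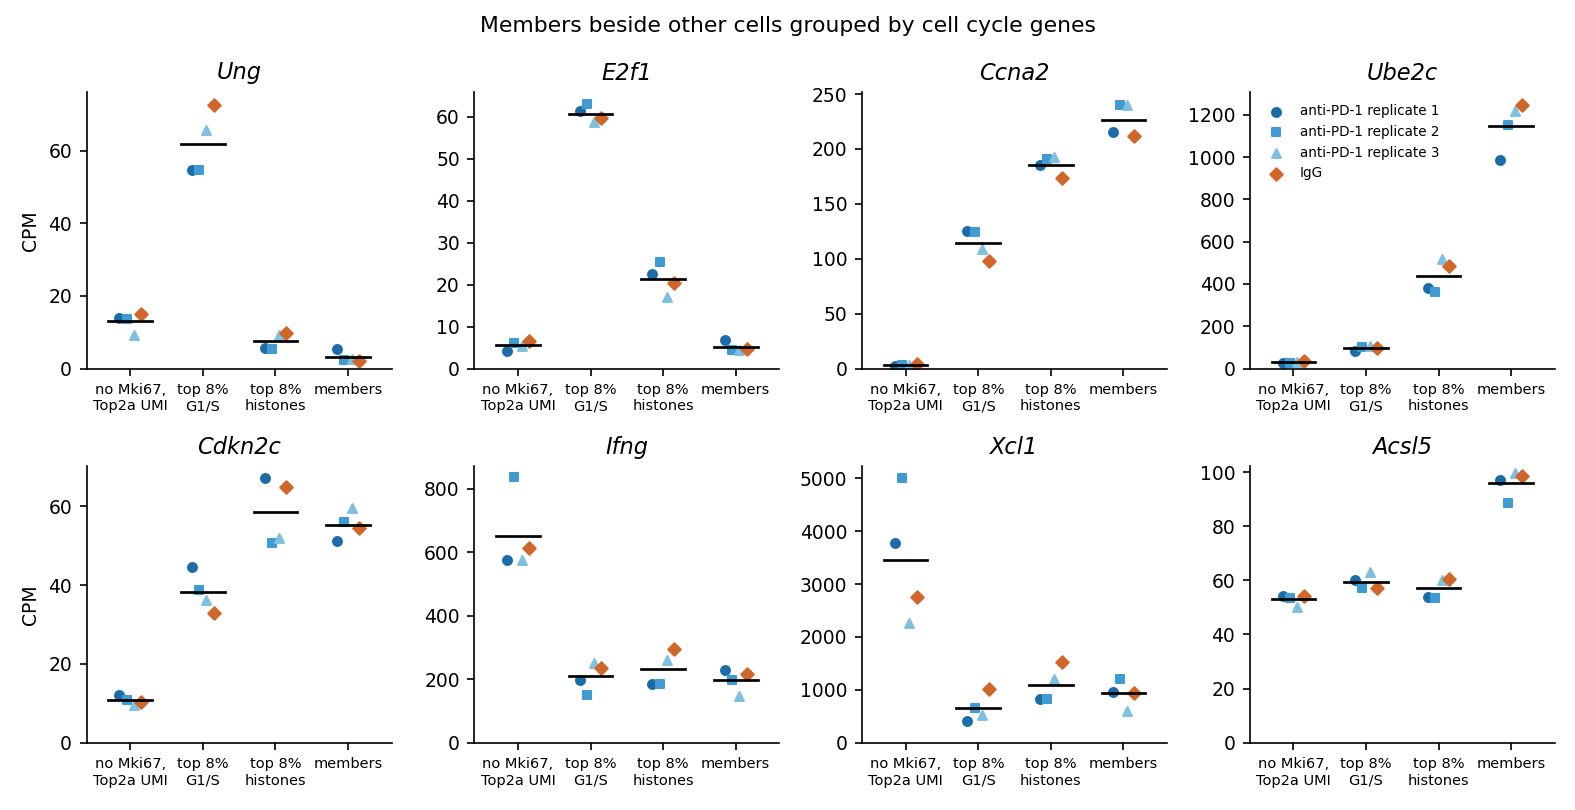
CPM of 8 genes in members and in 3 subsets of the other cells (the histone subset without cells in the top 8% by G1/S genes), with 1 point for each library and black bars for the mean of 4 libraries. Ung and E2f1 are highest in G1/S cells, Ube2c and Acsl5 in members, and Ifng and Xcl1 in cells with no Mki67 or Top2a UMI.

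Histone messages split the members. Of the 1866, 431 (23.1%, and 21.6 to 25.7% in each library) were also in the top 8% by replication histones, and 16 (0.857%) in the top 8% by G1/S genes. Over all members 9 of 26 replication histone genes were 2-fold higher than in other cells, 24 past the lower bar and 0 lower (median log2 1.17), led by Hist1h2bc (1.54 ± 0.12) and Hist1h3c (1.45 ± 0.15). Histone genes have near-identical copies whose reads the counting could divide, so single genes of the family are uncertain. Histone-high members had more Top2a than the remaining members (log2 1.17 ± 0.13), more Cdkn2c (1.32 ± 0.11), Cdkn2d (1.08 ± 0.27), H2afx (0.98 ± 0.18) and Mki67 (0.84 ± 0.02), and somewhat more Ccna2 (0.47 ± 0.07). Ccnb1 (0.04 ± 0.16), Cdkn3 (0.03 ± 0.12) and Cenpa (-0.04 ± 0.04) were level, and Cdc20 was lower (-0.24 ± 0.13). The 2 kinds of member had similar depth, with medians of 12760 and 11306 UMIs.

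Effector cytokine genes were lower in members. Of 10 cytokines and chemokines 2 were 2-fold lower, 6 past the lower bar downwards and 0 higher (median log2 -0.72). A lower sum can come from fewer cells with the RNA or from less RNA in each. Xcl1 (ENSMUSG00000026573), which attracts cross-presenting dendritic cells, had 969, 1211, 597 and 950 CPM in members and 2280, 2940, 1651 and 2207 CPM in other cells (log2 -1.30 ± 0.11). Ifng, for interferon-γ, had 229, 199, 146 and 218 CPM against 464, 675, 445 and 498 CPM (log2 -1.39 ± 0.35). In neither gene did members and other cells overlap. After thinning, Xcl1 had a UMI in 42.5, 43.5, 35.9 and 57.9% of members and 51.8, 52.9, 44.9 and 61.1% of other cells, and Ifng in 31, 35.7, 30.4 and 33.2% against 36.7, 38.9, 38.5 and 40.4%. Tnf (-0.22 ± 0.44) and Fasl (-0.13 ± 0.14) were nearer to level. Other cells high in G1/S or histone genes had cytokine levels near those of members. Ifng was at 209 ± 44.3 CPM in G1/S cells and 231 ± 54.8 in histone-high cells, beside 198 ± 36.7 in members and 651 ± 125 in Mki67/Top2a-negative cells, and Ccl3 at 804 ± 237, 728 ± 202, 619 ± 254 and 1810 ± 603 CPM.

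Granzymes went in different directions. Of 9 granzyme and perforin genes 5 were past the lower bar downwards and 1 past it higher (median log2 -1.49). Gzmd was the 1 past 2-fold in all 4 libraries. The summed CPM of the list differed less than this median, with a log2 ratio of -0.22 ± 0.27, and of 0.09 in anti-PD-1 replicate 1. Gzmd (-2.80 ± 1.09), Gzmg (-2.75 ± 1.71) and Gzmc (-1.49 ± 0.96) belong to a cluster of similar genes on chromosome 14, and reads of one may be counted for another. Few cells held them. Gzmd UMIs were in 3, 5, 11 and 7 members (1.47, 2.39, 2.11 and 0.752%) and in 1.11, 1.58, 2.60 and 1.29% of other cells, so the share was higher in members in 2 of 4 libraries, as it was after thinning (0.5, 0.97, 0.97 and 0.48% against 0.47, 0.84, 1.57 and 1.02%). Of the 101 Gzmd UMIs in IgG members 52 came from 1 cell, and single other cells held up to 210, 397, 1215 and 492. Gzmc UMIs were in 6.86, 7.66, 12.5 and 9.24% of members and in 5.32, 5.69, 12.1 and 8.53% of other cells. After thinning to 4000 UMIs the shares were 2.5, 2.90, 6.24 and 6.44% of members and 1.89, 2.31, 6.59 and 6.82% of other cells, so at equal depth members were lower in 2 of 4 libraries. Single other cells held up to 429, 393, 777 and 665 Gzmc UMIs. Gzmk was higher, with 178, 214, 217 and 139 CPM in members and 128, 137, 150 and 97.7 CPM in other cells (log2 0.54 ± 0.07), although the ranges over libraries overlapped. Gzma was level (0.14 ± 0.29).

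T cell identity genes were close to other cells, and some genes of T cell state were not. All 12 CD8 T cell identity genes lay between -0.10 and 0.12, among them Cd8b1 (0.12 ± 0.04), Trac (0.11 ± 0.03), Thy1 (-0.03 ± 0.06) and Cd8a (-0.10 ± 0.04). None of 11 inhibitory receptor genes and Tox passed the lower bar, with Cd160 (-0.36 ± 0.05) and Lag3 (-0.30 ± 0.10) lowest and Cd200r1 (0.55 ± 0.29) and Cd244a (0.34 ± 0.26) highest. Of 24 antigen-response and immediate early genes 6 were past the lower bar downwards and 0 higher, led by Nr4a3, an early target of receptor signalling (-1.01 ± 0.26). Nr4a1 (-0.82 ± 0.59) spread more between libraries, Fosb was level (0.02 ± 0.13) and Ier5 slightly higher (0.19 ± 0.05). Of 11 precursor and memory genes 1 was past the lower bar upwards, S1pr1, the receptor for exit from tissue (0.64 ± 0.17). Downwards 2 were past it, Ccr7 (-1.22 ± 0.37) and Bach2 (-0.59 ± 0.11). Of all genes tested 7.2% were past this bar upwards and 4.24% downwards. So 1 of 11 was near the share of all genes, and 2 of 11 rested on few genes. Klf2, which drives S1pr1, had 89.0, 88.6, 28.0 and 38.0 CPM in members against 50.3, 50.1, 22.8 and 15.4 CPM (log2 0.79 ± 0.39). None of 10 interferon-stimulated genes passed the lower bar, from Bst2 (-0.38 ± 0.10) to Irf9 (0.21 ± 0.03) and Stat2 (0.38 ± 0.24).

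Markers of other cells were scarce. The myeloid, tumour epithelial, fibroblast and endothelial, and erythroid lists had 0 genes at 10 CPM. Summed over each list, members had 8.68 to 22.3 CPM of 14 myeloid genes, with 4 of them at 0, against 18.6 to 31.7 CPM in other cells, and 6.14 to 7.82 CPM of 10 tumour epithelial genes, with 2 at 0, against 13.7 to 39.3 CPM. For 8 stromal genes, 5 of them at 0 in members, the sums were 5.87 to 9.47 and 7.01 to 16.05 CPM. For 10 B and plasma cell genes, 4 at 0 in members, they were 53.4 to 83.3 and 58.1 to 272 CPM. Ighm (-0.02 ± 0.11), Igha (-0.70 ± 1.18) and Igkc (-1.16 ± 2.53) passed 10 CPM, and of 4883 Igha UMIs in other cells of anti-PD-1 replicate 3, 4326 came from 1 cell. Of genes of other T cells, Tcrg-C2 (0.69 ± 0.13) and Trdc (0.13 ± 0.10) passed.

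Metabolic genes were close in members and other cells. None of 38 nuclear genes of oxidative phosphorylation passed the lower bar, with Cox7a2 (0.26 ± 0.03) and Ndufb9 (0.22 ± 0.04) highest and Cycs (-0.19 ± 0.07) and Ndufa6 (-0.11 ± 0.05) lowest. None of 13 mitochondrially encoded genes did either, from mt-Atp8 (-0.15 ± 0.08) and mt-Nd5 (-0.13 ± 0.05) to mt-Cytb (0.03 ± 0.04) and mt-Nd6 (0.08 ± 0.12). Of 20 glycolysis and hypoxia genes 2 were past the lower bar downwards, beside 4.24% of all genes tested. They were Aldoc, a fructose-bisphosphate aldolase (-1.41 ± 0.28), and Hk2, a hexokinase (-0.96 ± 0.22), while Gapdh (0.02 ± 0.03) and Eno1 (-0.03 ± 0.04) were level. Srm, which makes spermidine, had a log2 ratio of -1.29 ± 0.36 and Zmynd19 one of -1.39 ± 0.25. The 76 cytosolic ribosomal protein genes were slightly lower together (median log2 -0.17, from Rps27 at -0.28 ± 0.02 to Rps27l at 0.03 ± 0.04).

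Of the genes the guides target, 37 reached 10 CPM, 0 were 2-fold apart and their median was 0.05. Acsl5, which activates long-chain fatty acids to acyl-CoA, was the highest. It had 97, 88.4, 99.7 and 98.4 CPM in members and 60.2, 58.7, 56.9 and 58.1 CPM in other cells (log2 0.70 ± 0.09), with no overlap. The 3 subsets of other cells were at 59.4 ± 2.68 (G1/S), 57.0 ± 3.99 (histone-high) and 53.0 ± 1.99 CPM (Mki67/Top2a-negative), so members were above each of them. Histone-high members had less of it (66.8 ± 11.5 CPM) than the remaining members (105 ± 6.73 CPM). Idh3g, of the citric acid cycle (0.41 ± 0.12), and Gldc, of glycine cleavage (0.35 ± 0.28), followed. St3gal4, a sialyltransferase (-0.42 ± 0.05), Uxs1, which makes UDP-xylose (-0.36 ± 0.13), and Kmt2c, a histone methyltransferase (-0.18 ± 0.11), were lowest.

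Elovl1, the elongase of very-long-chain fatty acids, had 46.2, 47.6, 55.5 and 58.6 CPM in members and 42.0, 41.9, 47.6 and 46.2 CPM in other cells (log2 0.22 ± 0.09). It was higher in members within each library, although the ranges over libraries overlapped. Its 3′ end (chr4:118428093-118432953, plus strand, GRCm38) overlaps that of the rule gene Cdc20 (chr4:118432901-118437352, minus strand). Whether counting used the strand was not given in the sources used here, so reads in the overlap may not be told apart.

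Treatment was not used by the rule and was tested in members, with sums of 3 anti-PD-1 libraries against 1 IgG library, which was assumed to vary like the others. Of 10631 genes edgeR called 0 (0.0%), although 238 were under 0.05 before adjustment. DESeq2 also gave 0 calls, with 106 genes under 0.05 before adjustment. By list, 0 of 38 spindle genes were called (median log2 anti-PD-1 over IgG -0.13) and 0 of 18 mitotic kinases and cyclins (-0.11), beside a median of 0.02 over all genes tested. With replicate 3 alone set against IgG these medians were 0.07 and 0.04. The 5 genes with the smallest p-values each had an adjusted p of 0.999 with edgeR. Gzmd, for granzyme D, had 2.54, 1.96 and 4.59 CPM in anti-PD-1 members and 12.6 CPM in IgG members (log2 -1.96 ± 0.39, SE), from few cells as given above. Gzmb, for granzyme B, had 1483, 1292 and 1323 CPM in anti-PD-1 members and 865 CPM in IgG members (log2 0.66 ± 0.14, SE). Batf3, an AP-1 factor of dendritic and T cells, had 5.51, 7.60 and 6.43 against 1.2 CPM (2.36 ± 0.44), and Glis1, a zinc finger factor, 2.54, 3.48 and 2.99 against 0.249 CPM (3.49 ± 0.77) from 2 UMIs in IgG. Plekho1 was lower with anti-PD-1 (7.41, 7.17 and 5.97 against 14.7 CPM, -1.12 ± 0.25).

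This result rested on replicate 3. Without it edgeR called 1054 genes, 558 higher and 496 lower, and with a term for replicates 1 and 2 it called 71, 29 higher and 42 lower. With that term treatment is replicate 3 against IgG, 1 library against 1, and in both fits the spread comes from replicates 1 and 2 alone, which may be technical. The experiment, the treatment and the library cannot be told apart among these calls.

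Whether treatment acted differently in members and other cells was tested as an interaction, with library as a block. Of 13140 genes edgeR called 4 (0.0304%), and 371 were under 0.05 before adjustment. DESeq2 gave 0 calls, with 25 genes under 0.05 before adjustment. All 4 were lower in members relative to other cells under anti-PD-1. The direction turned among sgNT cells for Gzmd (6.19), Gzme (6.18) and Ccl1 (0.75), and Igha was at 0.061 without cells holding other types' markers. Ccl1, a chemokine for CCR8, had 131, 151 and 306 CPM in anti-PD-1 members and 473 CPM in IgG members, against 296, 319 and 524 CPM and 630 CPM in other cells (log2 difference -0.60 ± 0.10, SE, adjusted p = 0.0157, edgeR). A Ccl1 UMI was in 31.9, 34.0, 41.2 and 40.2% of members and in 33.0, 32.9, 44.0 and 39.8% of other cells. After thinning to 4000 UMIs these were 13.0, 17.4, 22.8 and 31.3% of members and 19.1, 19.3, 28.0 and 34.6% of other cells. Gzmd (-2.27 ± 0.26, adjusted p = 0.000288) and Gzme (-2.76 ± 0.34, adjusted p = 0.000511) rested on few cells in edgeR's fit, as Gzme UMIs were in 0, 1.44, 1.15 and 0.859% of members and 61 of 100 in IgG members came from 1 cell. Igha (-2.41 ± 0.38, adjusted p = 0.0150 with edgeR) held the single cell of replicate 3 named above. Without replicate 3 there were 48 calls, and without replicate 1 there were 14.

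Guides were not used by the rule either, so the share of members among cells of each target could be tested against other cells of the same library. Of 84 features, the 83 targets and sgNT, edgeR called 0 (0.0%), with 5 under 0.05 before adjustment. DESeq2 also gave 0 calls, with 1 under 0.05 before adjustment. sgNT cells held 226 members of 2730 (8.28%, 95% interval 7.27 to 9.38), close to the 8% the rule gives. Targets ranged from 4.17% (Pigf, 2 of 48 cells) to 15.4% (Sds), with a median of 8.0% and of 249 cells, and a median SE of 0.38 on the log2 scale. Shifts of several times the SE were not called either, as for Sds below.

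Sds, for serine dehydratase, had 33 members among 214 cells (15.4%, interval 10.9 to 20.97, log2 1.11 ± 0.35, SE, adjusted p = 0.135, edgeR). The share was over 8% in 4 of 4 libraries, at 33.3, 30.0, 12.7 and 13.5%, and its 3 guides gave 16.4, 14.7 and 15.4%. In the first 2 libraries it rested on 5 of 15 and 3 of 10 cells. Kmt2b, a histone methyltransferase, had 12.4% (34 of 275, adjusted p = 0.629) and Slc5a12, a lactate transporter, 11.3% (32 of 282, adjusted p = 0.673) in edgeR's fit. For Slc5a12 the shares were 14.3, 16.7 and 18.2% in the anti-PD-1 libraries (6 of 42, 6 of 36 and 12 of 66 cells) and 5.80% in the IgG library (8 of 138), below the 8% of the rule. Its guides gave 13.8, 13.8 and 5.81%, so 1 of the 3 lay apart from the others. On the low side stood Mtmr1, a lipid phosphatase, with 5.01% (20 of 399, adjusted p = 0.629, edgeR), Pik3cd, the PI3K catalytic subunit of lymphocytes, with 5.56% (28 of 504 cells, 1 guide, adjusted p = 0.673), and Uxs1 with 5.87% (35 of 596, adjusted p = 0.673). The Pik3cd share was 4.0, 3.57 and 3.29% in the anti-PD-1 libraries (1 of 25, 1 of 28 and 7 of 213 cells) and 7.98% in the IgG library (19 of 238). Replicates 1 and 2 rested on 1 member each, and a difference between treatments in this share was not tested. Elovl1 had 20 members of 295 cells (6.78%, interval 4.19 to 10.3, log2 -0.27 ± 0.34, adjusted p = 0.896, edgeR), and guides at 8.16, 5.10 and 7.07%. The interval includes the sgNT share.

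**Figure D5:**
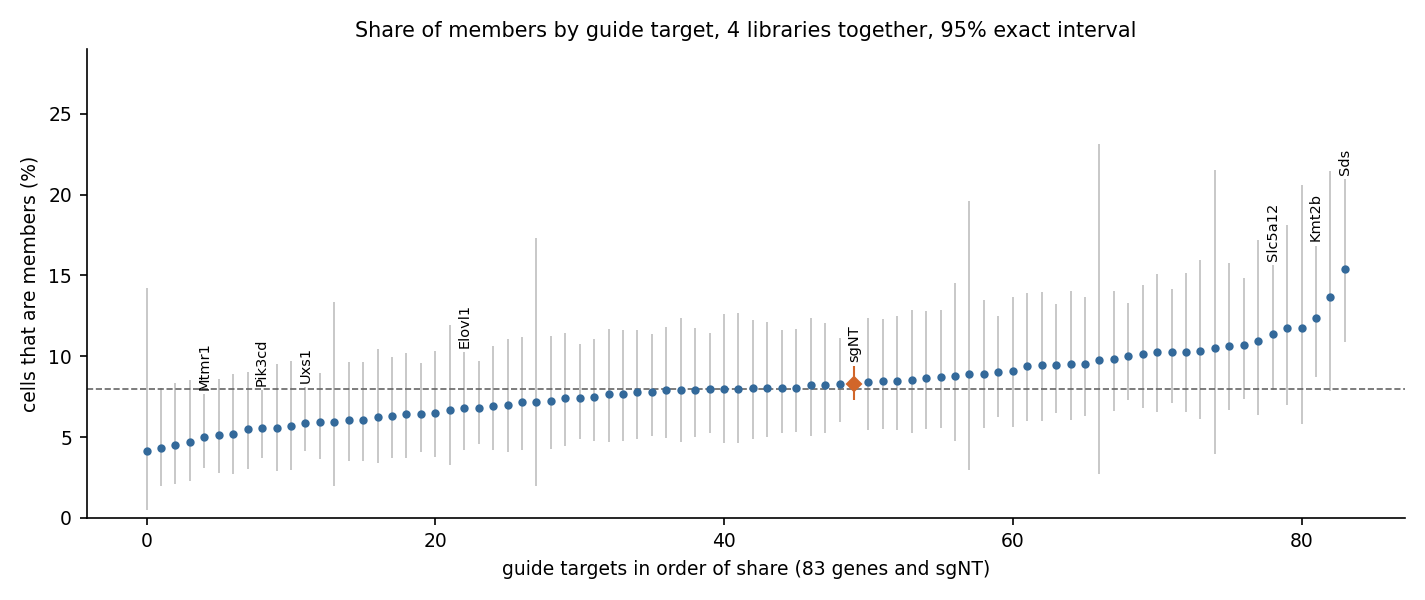
Share of cells that are members (%) for 83 targets (blue) and sgNT (orange), 4 libraries together, ordered by share, with 95% exact intervals and a dashed line at the 8% set by the rule. Sds is at 15.4%, sgNT at 8.28% and Elovl1 at 6.78%, and most intervals include the dashed line.

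Because the rule fixes the share, cells were compared between treatments at a common threshold, which need not mark dividing cells only. Cenpa, a rule gene, was also found after thinning in other cells with no Mki67 or Top2a UMI. The threshold was at least 3 rule gene UMIs in 4000. This held for 26.2% (24.5 to 27.9), 27.0% (25.3 to 28.8) and 25.9% (24.8 to 27.0) of cells in the anti-PD-1 libraries and for 29.5% (28.6 to 30.4) in the IgG library. The mean difference was -3.18 percentage points, with each anti-PD-1 library below IgG (exact permutation test, two-sided, p = 0.25). This is the smallest p that 3 against 1 allows, so the test could not pass 0.05, and since the rule genes also chose the members the shares are a description. Thinning left out 25, 27, 236 and 1968 shallower cells. Among sgNT cells the shares were 27.7, 31.0 and 26.4% against 28.1%, and the difference was 0.20 points. At 8 UMIs, nearer to the level of members, the shares were 6.45, 7.11 and 9.09% against 9.48%, so replicate 3 again lay next to IgG. The difference was -1.93 points there, -1.74 at 2 UMIs in 2000, and -1.65 for unthinned scores over the median limit of the 4 libraries, so its size depended on the threshold and depth.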

How the data were processed

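CD90.1+ OT-I cells sorted from tumours were profiled with 10x 3′ v3.1 chemistry and guide capture, in 4 expression libraries with their guide libraries. The authors mapped reads to mm10 with Cell Ranger 3.1.0 and assigned guides by automatic UMI thresholds. The deposited values are raw UMI counts per gene and barcode. The limits on UMIs per cell that the authors applied for each sample were not given in the sources used here and were not applied, and no doublet caller was run. Here, barcodes with 1 called guide and mt- genes at most 10% of gene UMIs were kept, counts were summed per library over members and over other cells, and CPM was taken per sum. Ratios were log2 of (CPM + 1) and are given as mean ± SD over 4 libraries. Genes entered at 10 CPM in the mean of members or of other cells. Fits across all genes used edgeR 4.0.16 quasi-likelihood tests (R 4.3.3, filterByExpr, TMM, Benjamini-Hochberg at 0.05, rule genes left out), with DESeq2 1.42.0 as an alternative, and were tested on simulated data. Intervals are 95% exact (Clopper-Pearson) and cover counting error only. Promoters are RefSeq's (GRCm38.p6), matched by symbol.

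Named genes were the 8 rule genes, the 15 highest and 10 lowest past 2-fold in all libraries at 20 CPM (filled up at a ratio of 5 to 4), the 2 highest and 2 lowest of each list, the 5 smallest p-values of a fit or its calls, the 3 targets with the smallest p-values in each direction, Elovl1, Slc5a12, Pik3cd, and the 3 highest and lowest targeted genes. Other genes in the text were picked after their values were seen. The members and the gene lists were chosen with earlier results of these data known. Alternatives changed the share of cells taken as members, the score, the filters, the scaling, the tool and the libraries. The paper counts mice separately for each treatment and reports 2 independent experiments, so IgG and anti-PD-1 libraries came from different mice. No source used here says which mice or which experiment each library held, so p-values measure only the spread between libraries.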

Additional observations from a re-analysis of the deposited data

Results flagged for a closer look

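In 4 genes the difference between mitotic members and other cells itself differed between anti-PD-1 and IgG by the interaction test in edgeR. The log2 values, anti-PD-1 minus IgG, were -2.27 for Gzmd, -2.76 for Gzme, -2.41 for Igha and -0.60 for Ccl1. DESeq2 called none of them at an adjusted p under 0.05, and its smallest adjusted p over all genes was 0.209. Gzmd UMIs came from 3, 5 and 11 cells in the anti-PD-1 members and 7 cells in IgG members, and up to 1215 UMIs came from 1 of the other cells. Among sgNT cells alone the values were 6.19 for Gzmd, 6.18 for Gzme and 0.75 for Ccl1. Without cells holding at least 10 UMIs of other types' markers, an alternative chosen after seeing the data, the value of Igha was 0.061. The part of single cells in the other values was not tested.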

How the results depend on the processing

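Genes at least 2-fold lower in members numbered 13, but 24 with the top 5% of cells, 2 at a minimum of 50 CPM, 70 at 1.5-fold, and 13 to 21 when 1 library was left out. Genes higher numbered 164, but 107 at 50 CPM and 290 at 1.5-fold. Treatment calls in members were 71 with a term for replicates 1 and 2, and 0 to 1054 when 1 anti-PD-1 replicate was left out. Interaction calls were 7 with the top 5%, 1 with the score thinned to 2000 UMIs, 1 in sgNT cells, 2 without cells holding other types' markers, 0 with DESeq2, 19 without a filter, and 4 to 48 with 1 replicate left out. The difference at the common threshold was -3.18 points, but -1.74 at 2 UMIs in 2000, -1.65 unthinned at the median limit, -1.93 at 8 UMIs and 0.20 among sgNT cells, and ranged from -3.50 to -2.94 with 1 replicate left out. Besides this difference in sgNT cells, other values changed sign. Among gene ratios these were Hist1h3a with the top 5% (-0.037) and in sgNT cells (-0.51), and Ier5 (-0.18) and Tcrg-C2 (-0.46) in sgNT cells. Among medians they were library targets with no minimum (0.00) and with another scaling (-0.022), and the MuvB list at 50 CPM (-0.014). In the interaction they were Gzmd (6.19), Gzme (6.18) and Ccl1 (0.75) in sgNT cells, and Igha (0.061) without cells holding other types' markers. The cause was not tested. Of 1935 other values for 129 genes 1770 moved by less than 1 SD. Removing cells with other types' markers and the threshold of 8 UMIs were chosen after seeing the data. No paired analysis was possible because anti-PD-1 and IgG share only 1 replicate number, given in accession order, and the term for replicates 1 and 2 groups libraries by title instead. Depth limits the shallow IgG library and targets with few cells.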

Other observations

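Rule gene UMIs were also counted in barcodes that the rule left out, at the threshold of 8 UMIs in 4000. Only barcodes with at least 4000 UMIs entered. Without a guide these were 5513 of 5770, 5897 of 6207, 3474 of 4578 and 3947 of 7356 within the limit on mitochondrial genes. With more than 1 guide they were 425 of 425, 322 of 323, 1199 of 1210 and 2027 of 2125. Without a called guide, 8.87% of the barcodes that entered in anti-PD-1 replicate 1, 8.78% in replicate 2, 7.89% in replicate 3 and 11.3% in the IgG library passed the threshold. With 1 guide the shares were 6.81, 7.65, 9.20 and 9.62% (another random draw of 4000 UMIs from these cells gave the 6.45, 7.11, 9.09 and 9.48% above), and with more than 1 guide 5.88, 7.45, 8.09 and 9.32%. In 3 of the 4 libraries the share was highest without a guide, and in replicate 3 it was highest with 1 guide. This order held at 8 UMIs and not at 3 UMIs, where the shares were 28.7, 28.0, 22.4 and 28.0% without a guide, 26.7, 28.0, 25.5 and 29.5% with 1, and 29.4, 26.4, 31.2 and 35.7% with more than 1. Median UMIs per barcode were 13282, 13008, 7630 and 4173 without a guide and 22024, 21501, 20790 and 10594 with more than 1.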
